A study of Homo sapiens with 12 samples.

Results

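Zinc finger gene clusters outside chromosome 19 were described through the H3K9me3 and H3K9me1 peaks of 9 genomic windows (hg19) that hold 51 zinc finger genes and span 5.6 Mb in all. The windows were chosen by the position of these genes, with peak results of the same libraries already known, so the amount of H3K9me3 in them is given as a description and not as a test. They held 38 of the 3228 H3K9me3 regions obtained when peaks of the 4 H3K9me3 libraries lying within 1 kb of each other were merged on chromosomes 1 to 22 and X. The cells were HCT116, an established human colorectal carcinoma line. Control libraries (0 hr) came from cells in RPMI-1640 medium with fetal bovine serum, and restricted libraries from cells washed with PBS and kept for 24 hr in methionine-free RPMI-1640 with the same serum, which removes the precursor of the methyl donor SAM. Each mark had 2 control and 2 restricted libraries, lettered A and B, and each list was called against the input of its own time and letter. Nothing shows that A and B were separate cultures, and the controls were all taken at 0 hr, so the effects of restriction and of time cannot be told apart.

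Zinc finger genes of the C2H2 type are the largest family of DNA-binding proteins in the human genome, and many lie in clusters that grew by tandem duplication. Many carry a KRAB domain, which recruits TRIM28 and through it SETDB1, the enzyme that places H3K9me3, mostly at transposable elements. The exons that code for the finger arrays of these genes are themselves known to carry H3K9me3. H3K9me1 is a lower methylation state of the same lysine, and both states depend on SAM.

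The closest likeness among member promoters lay in the cluster at 7q11, where the most similar pair of member promoters within a window was ZNF727 and ZNF736, identical at 84.0% of aligned positions. All 51 genes matched a protein-coding RefSeq record on the chromosome of their window. Of these, 41 matched a RefSeq promoter of 300 bases (GRCh38.p14, 250 bases before to 50 after the gene start). The window with the longest H3K9me3 in every library had no gene among the 41, so its promoters were not compared. The pair is shown as the closest of the 41 members within a window. ZNF12 is shown beside it, chosen after the values were seen, because its window at 7p22 had H3K9me3 peaks in the restricted libraries alone. Capitals mark CpG dinucleotides, and each line runs 5′ to 3′ on the gene's strand. In GRCh38.p14 the lines cover chr7:64045184-64045483 (plus strand), chr7:64313711-64314010 (plus strand) and chr7:6706898-6707197 (minus strand), which is another build than that of the peaks, so peaks were not placed on promoters, exons or introns.
ZNF727: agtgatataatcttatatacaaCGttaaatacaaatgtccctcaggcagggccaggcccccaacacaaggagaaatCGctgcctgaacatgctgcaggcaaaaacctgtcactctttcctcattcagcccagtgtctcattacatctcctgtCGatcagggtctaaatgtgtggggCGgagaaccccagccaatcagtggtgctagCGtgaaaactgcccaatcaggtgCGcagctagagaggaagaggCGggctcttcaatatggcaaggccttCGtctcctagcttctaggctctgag
ZNF736: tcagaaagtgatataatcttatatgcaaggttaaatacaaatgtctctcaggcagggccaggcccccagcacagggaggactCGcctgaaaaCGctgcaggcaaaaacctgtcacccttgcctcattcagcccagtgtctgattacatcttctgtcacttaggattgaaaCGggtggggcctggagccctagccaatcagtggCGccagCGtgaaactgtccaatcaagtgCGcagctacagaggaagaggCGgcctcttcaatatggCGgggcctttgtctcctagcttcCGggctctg
ZNF12: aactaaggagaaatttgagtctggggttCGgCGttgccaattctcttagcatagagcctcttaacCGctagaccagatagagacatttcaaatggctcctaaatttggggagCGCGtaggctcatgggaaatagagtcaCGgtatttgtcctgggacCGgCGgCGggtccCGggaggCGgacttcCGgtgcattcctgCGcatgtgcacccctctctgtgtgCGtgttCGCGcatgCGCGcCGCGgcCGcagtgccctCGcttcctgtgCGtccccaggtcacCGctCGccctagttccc
The ZNF727 and ZNF736 promoters hold 8 and 9 CpG dinucleotides and that of ZNF12 holds 25. Over the 41 member promoters the number ranged from 0 (ZNF679) to 46 (ZNF84 and ZNF10) with a median of 25, and 87.8% held at least 10, against a median of 14 and 56.4% over all 35116 RefSeq promoters of that length. Those promoters were not filtered for protein-coding genes, while the members are all protein coding, so the sets may differ in gene type. Identity between promoters of the same window had a median of 48.3% over 105 pairs, and between windows 47.6% over 715 pairs. The 7 pairs above 75% were all among ZNF727, ZNF736, ZNF680, ZNF107, ZNF138 and ZNF92 at 7q11.

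The lists were called from 33503018 to 35736289 reads for H3K9me3, 30952210 to 39452512 for H3K9me1 and 23523460 to 27843707 for input, per the file headers. The 4 H3K9me3 lists differed in size, with 1372 and 797 peaks for the A and B controls, and 1880 and 674 for their restricted counterparts. Restricted A thus had the most peaks and restricted B the fewest, and every count below moves with the length of its list. An exact two-sided permutation test of 2 against 2 cannot give a p below 0.333.

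H3K9me3 in the windows was sparse and came in short peaks. The windows held 17 peaks covering 13.5 kb in control A, 8 covering 8.81 kb in control B, 24 covering 27.2 kb in restricted A and 7 covering 7.10 kb in restricted B. The mean was 11.2 ± 3.34 kb (SD, n = 2) in control and 17.2 ± 14.2 kb (SD, n = 2) in restricted libraries, and the groups overlapped. Restricted over control was 2.01 between the A libraries and 0.806 between the B libraries, which ran on separate lanes, and without restricted A the ratio of the means went from 1.54 to 0.636. With peaks of −log10 q of at least 5 alone it was 0.224. The windows made up 0.934% and 0.933% of the H3K9me3 length of the controls, and 1.54% and 0.9996% of that of restricted A and B. Fold enrichment, the authors' ratio of read pileup to local background, ranged from 2.50 to 4.58 over the 56 peaks, whose length ran from 302 to 5917 bp. In control A the median fold was 3.26 in the windows and 3.03 over the whole list, and in restricted A it was 3.48 and 3.44. Only 2 of the 56 peaks reached a −log10 q of 5, 1 at 8q24 in control A and 1 at 3p21 in restricted A. Over the whole lists 11.5% and 16.9% of peaks did so in the controls, and 9.36% and 17.4% in the restricted libraries. The median folds of the windows were thus slightly above those of the lists in each library, while peaks of high −log10 q were few.

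**Figure D1:**
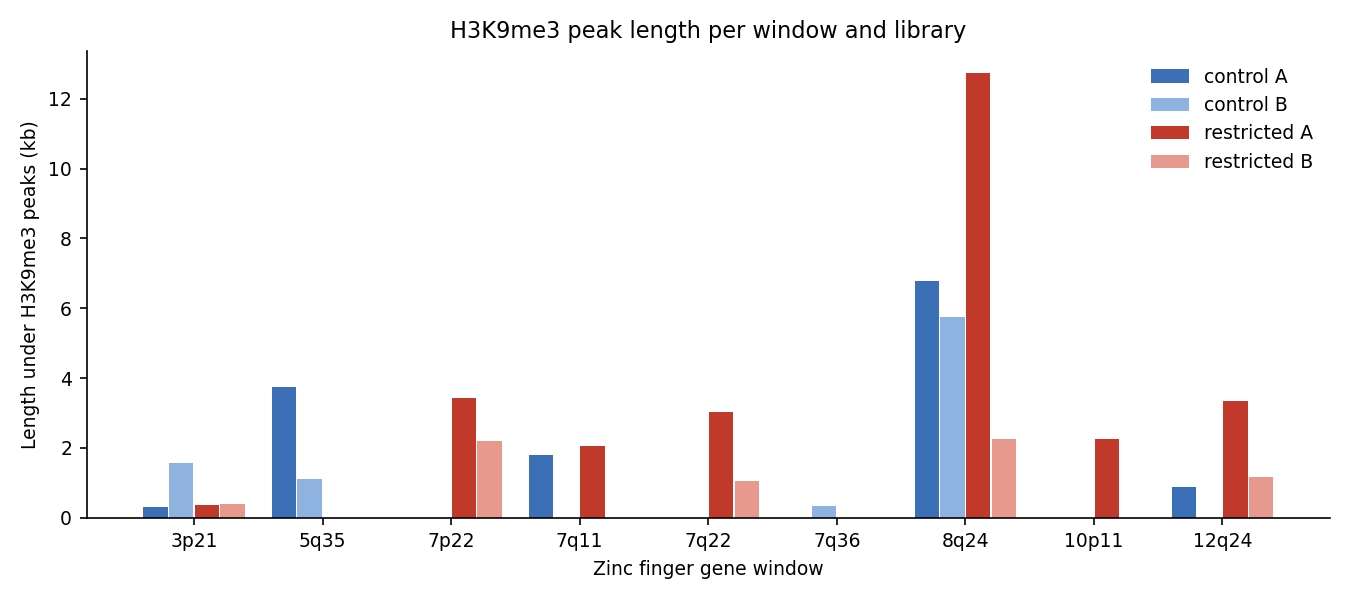
Length under H3K9me3 peaks (kb, vertical axis) in each of the 9 windows (horizontal axis), with 1 bar per library. The window at 8q24 had the longest bar in each of the 4 libraries, in restricted B by a narrow margin over 7p22 (2.25 against 2.21 kb). The window at 5q35 had bars in both controls only, and 7p22 and 7q22 in both restricted libraries only. A single bar stands at 10p11 (restricted A) and at 7q36 (control B).

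The most H3K9me3 was listed at 8q24. At 8q24 (chr8:145900001-146200000), with ZNF34, ZNF517, ZNF7, ZNF250 and ZNF16, peaks covered 6.80 kb in control A, 5.76 kb in control B, 12.7 kb in restricted A and 2.25 kb in restricted B. The restricted libraries lay on either side of the controls. Fold enrichment ran from 2.50 to 3.63 over the peaks of this window, against 2.96 to 4.58 in the other windows. The local background implied by pileup and fold was 4.55 to 9.90 here, against 2.63 to 6.15 in the others. This window alone held 2 regions present in all 4 libraries, against 4.65% of merged regions in the whole series. The longer, chr8:146063895-146069846, held 2.65, 3.09, 5.92 and 0.375 kb in the order control A, control B, restricted A, restricted B. The other, chr8:146155979-146158423, held 0.770, 1.73, 1.93 and 1.88 kb in the same order. Another region, chr8:145924884-145926517, was present in both A libraries only, with 1.32 kb in control A and 0.952 kb in restricted A. The window ends 0.104 Mb before the last region of chromosome 8 in any list. Its genes were not among those with a matched promoter, so the window took no part in the comparison of promoters.

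Next to the end of chromosome 12, the window at 12q24 (chr12:133400001-133800000) holds ZNF605, ZNF26, ZNF84, ZNF140, ZNF10 and ZNF268. ZNF10 is the source of the KRAB domain used in CRISPR interference. Peaks there covered 0.896 kb in the A control and none in the B control, against 3.35 and 1.17 kb in restricted A and B, so both restricted libraries lay above both controls. Most of it was 1 region, chr12:133779281-133782092, with 0.568 kb in control A, 2.81 kb in restricted A and 1.17 kb in restricted B. It was the only region outside 8q24 found in at least 3 libraries (3 of 38 in the windows, against 12.1% of all merged regions). Its peaks reached a fold of 4.21 in control A, 4.24 in restricted A and 3.11 in restricted B.

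On 7p22 (chr7:6600001-6800000), which holds ZNF12 and ZNF316, no H3K9me3 peak was listed in control A or control B, while restricted A had 4 peaks covering 3.43 kb and restricted B 1 peak covering 2.21 kb. Their shared merged region, chr7:6730347-6733759, held 1.56 kb in restricted A and 2.21 kb in restricted B. The restricted A peaks in it (6730347-6731481 and 6733335-6733759) overlapped the restricted B peak (6731432-6733644) only at its ends, so mostly different bases were listed. The other 2 regions of the window were found in restricted A alone. The 2 flanks of the window, each of its own length, held no peak in any library.

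A similar order was seen at 7q22 (chr7:99000001-99300000), the locus of ZNF394, ZNF789 and ZNF655. No peak was listed in the controls, against 3.03 kb in restricted A and 1.07 kb in restricted B. The shared region, chr7:99127618-99129501, held 1.70 and 0.567 kb, and its 2 peaks overlapped while the other 3 regions were each found in 1 library. Here control A had 1.22 kb of peaks in the flanks, so the absence of peaks in that library did not extend beyond the window.

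The reverse order was seen at 5q35 (chr5:178100001-178600000), which holds ZNF354A, ZNF354B, ZNF354C, ZNF454, ZNF879 and ZFP2. Control A had 4 peaks covering 3.75 kb and control B 1 peak covering 1.12 kb, and no peak was listed in either restricted library. The region common to both controls was chr5:178306249-178307470, with 1.03 kb in control A and 1.12 kb in control B. At 3p21 (chr3:44200001-45000000), where ZNF445, a factor that protects imprinted methylation, lies with ZNF852, ZNF660, ZNF197, ZNF35, ZNF502 and ZNF501, each library had 1 peak, of 0.302, 1.58, 0.367 and 0.405 kb in the order above. The peaks of both controls overlapped in chr3:44800635-44802218, and the restricted libraries each had a peak of their own elsewhere.

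**Figure D2:**
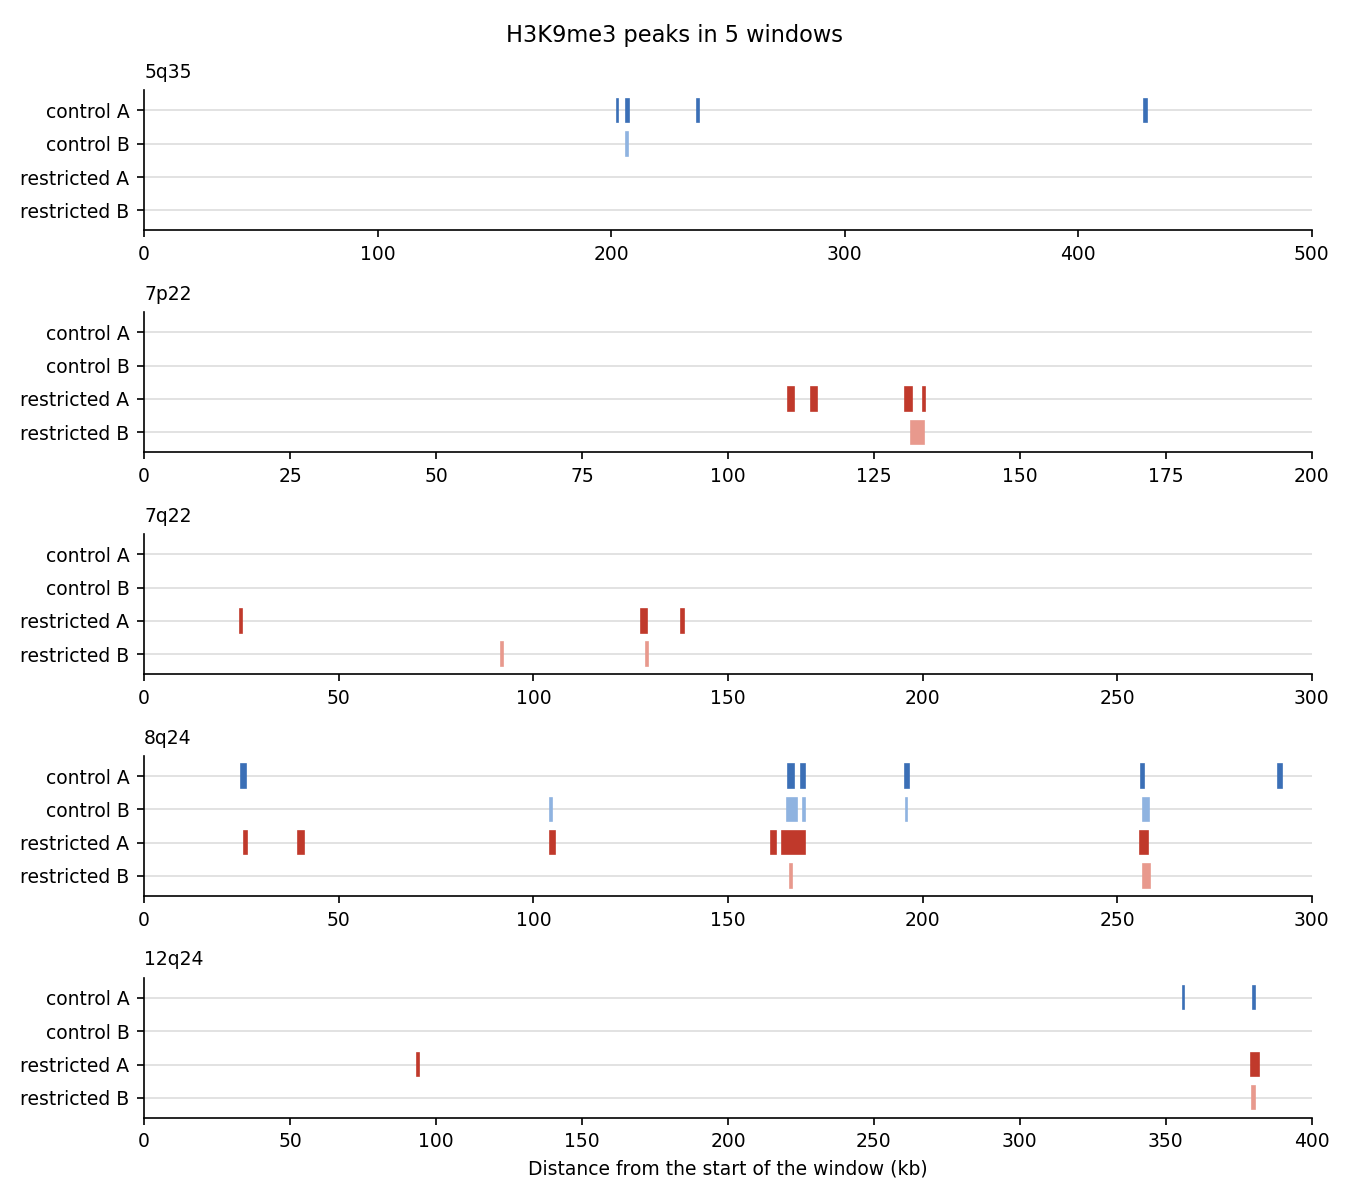
Position of H3K9me3 peaks in 5 windows, by distance from the start of the window (kb, horizontal axis, scaled per panel), with 1 row per library and a thin outline so that short peaks can be seen. Peaks at 5q35 lie in the control rows alone and at 7p22 and 7q22 in the restricted rows alone, while 2 stretches at 8q24 are marked in all 4 rows.

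The remaining windows had little. The largest, 7q11 (chr7:63400001-65000000), holds ZNF727, ZNF679, ZNF736, ZNF680, ZNF107, ZNF138, ZNF273, ZNF117 and ZNF92, and had 1.79 kb in control A, 2.07 kb in restricted A and none in either B library. Its 8 regions were each found in 1 library, so no site recurred. The window at 10p11 (chr10:37900001-38500000), with ZNF248, ZNF25, ZNF33A and ZNF37A, had 4 peaks covering 2.25 kb in restricted A and none elsewhere. The window at 7q36 (chr7:148700001-149600000) holds ZNF425, ZNF398, ZNF282, ZNF212, ZNF783, ZNF777, ZNF746, ZNF467 and ZNF862, and ZNF746 encodes a repressor that the ubiquitin ligase parkin targets. It had 1 peak of 0.353 kb in control B and none in the other libraries.

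Counted over regions, the split by condition was small in both directions. Of the 38 regions in the windows, 2 were present in both restricted and neither control library, against 2.45% of merged regions in the whole series. In both control and neither restricted library there were 3 (3p21, 5q35 and chr8:146095439-146096425 at 8q24), against 2.14% of all merged regions. Found in 1 library were 28 of 38 (73.7%), close to the 73.9% over all merged regions. Over whole windows, covered length in the restricted libraries lay above both controls in 3 (7p22, 7q22 and 12q24), below both in 1 (5q35) and overlapped in 5. No share over other stretches of like length stands beside this count, so it cannot be judged. Where 2 or more libraries had a peak in a 100 kb bin, 4 of 11 in the windows were above and 2 below, against 19.5% above and 15.8% below over the 758 such bins of the series. Because these windows were proposed with such differences known, nothing is read from the counts. The calls were also sensitive to the amount listed: when each list was cut to its 674 peaks of highest −log10 q, 1 restricted-only and 0 control-only regions were left, and when at least 50% of a region had to be covered, 0 and 1.

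Peaks occurred in more of the 100 kb bins of the windows than in the genome. A peak was present in at least 1 library in 20 of 56 bins (35.7%) of the windows, against 7.97% of 30367 bins of the series, and in at least 2 libraries in 11 bins (19.6%), against 2.5%. Relative density, the covered share of the windows divided by that of all chromosomes in a library, was 5.07 and 5.06 in the controls, and 8.34 and 5.42 under restriction. In the flanks, 18 stretches of the windows' own lengths on either side and cut at chromosome ends, it was 5.89, 5.74, 5.37 and 6.34 in that order. The windows were above these flanks in restricted A only, and 1 flank decided this. The flank before 7q11, on its centromere side, held 15.7 and 11.3 kb of peaks in the controls, and 22.1 and 11.7 kb in restricted A and B. Without it, a choice added with the values known, the other 17 flanks had a relative density of 3.30, 2.74, 2.12 and 1.94, and the windows lay above them in all 4 libraries. Part of the density of the windows came from 8q24, without which it was 2.66, 1.85, 4.69 and 3.91. Without 8q24, a choice also added with the values known, both restricted libraries lay above both controls in this density. In covered length the groups overlapped, with 6.73 and 3.05 kb in the controls, and 14.5 and 4.85 kb in restricted A and B. The flanks of 3p21, 5q35 and 7p22 held no peak in any library. In 4 windows over the zinc finger clusters of chromosome 19, 11 Mb set in whole Mb, relative density was 13.3, 7.08, 7.32 and 11.8. Chromosome 19 was thus denser than the windows in 3 libraries and less dense in restricted A.

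**Figure D3:**
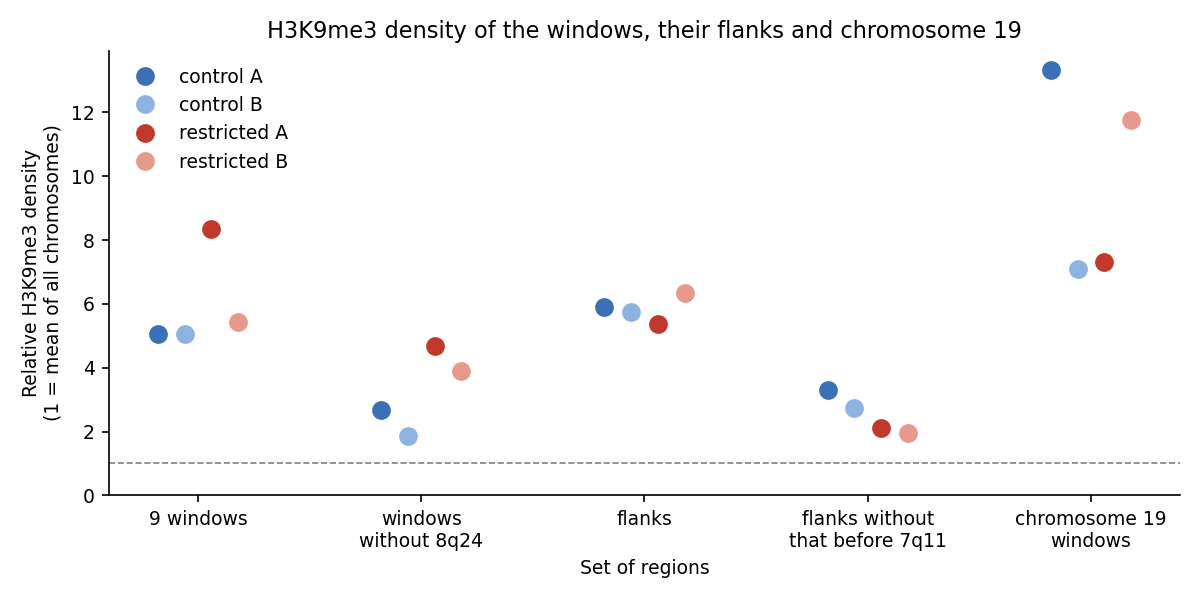
Relative H3K9me3 density (vertical axis, from 0, dashed line at 1 for the mean of all chromosomes) of the 9 windows, the windows without 8q24, the 18 flanks, the 17 flanks without that before 7q11, and the chromosome 19 windows, with 1 point per library. The windows lie at 5.06 to 8.34 and the 18 flanks at 5.37 to 6.34, the 17 flanks at 1.94 to 3.30, and the windows fall to between 1.85 and 4.69 without 8q24.

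H3K9me1 was listed as many short, weak regions, and whole chromosomes were missing from some lists. It was therefore read only where a list holds the chromosome: chromosomes 7, 10 and 12 were in all 4 lists, chromosome 3 was not in that of restricted B, and chromosomes 5 and 8 were not in that of control B. Relative density was taken against the 8 chromosomes in all lists, of which regions covered 12.4% and 15.1% in the A and B controls, 5.72% in restricted A and 14.8% in restricted B.

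The windows at 7q11, 10p11 and 12q24 were poor in H3K9me1 in the controls and nearer to the mean in the restricted libraries. At 7q11 regions covered 95.7, 130, 112 and 205 kb of the window, a relative density of 0.481 and 0.535 in the controls (0.508 ± 0.0382, SD, n = 2) against 1.22 and 0.867 under restriction (1.04 ± 0.252, SD, n = 2). At 10p11 regions covered 37.6, 57.0, 42.0 and 87.2 kb, and the density was 0.505 and 0.628 in the controls (0.566 ± 0.0868, SD, n = 2) against 1.22 and 0.982 under restriction (1.10 ± 0.171, SD, n = 2). At 12q24 it was 0.0709 and 0.255 in the controls (0.163 ± 0.130, SD, n = 2) against 0.680 and 0.598 under restriction (0.639 ± 0.0574, SD, n = 2). In density, both restricted libraries lay above both controls in each of these windows. At 10p11 and 12q24 this gap was wider than the difference between the libraries of either condition. At 7q11 it was narrower than the difference between the restricted libraries. In covered length the groups overlapped at 7q11 and 10p11, with restricted A between the controls, so the order there rests on the division by each list's coverage, which is low in restricted A. The 12q24 window had as few as 11 regions covering 3.52 kb in control A, and 36 covering 15.46 kb in control B. Restricted A had 47 covering 15.54 kb and restricted B 87 covering 35.4 kb. Control B and restricted A thus covered nearly the same length there, and their gap in density also rests on the division.

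The windows that already held H3K9me1 at or above the mean in the controls differed less. The control values that sort the windows also enter these differences, so nothing is read from that contrast. At 7q36 regions covered 145 and 180 kb in the controls and 84.7 and 179 kb in the restricted libraries. After division by each list's coverage the density was 1.30 and 1.32 in the controls and 1.65 and 1.34 in the restricted libraries, which then lay above both controls, for restricted B by a small margin, although neither covered more than control B. At 7q22 it was 1.41 and 1.43 against 1.82 and 1.31, and at 7p22 it was 0.998 and 1.03 against 1.98 and 0.876, so both overlapped. Regions covered 52.6, 64.8, 31.3 and 58.2 kb at 7q22 in the order control A, control B, restricted A, restricted B. At 7p22 they covered 24.8, 31.3, 22.7 and 25.9 kb in that order. At 7q36, 7q22 and 7p22 alike, restricted A thus covered the least of all libraries and was high only after the division. The density of restricted B was near or below that of the controls. On the chromosomes that a list lacked, 5q35 had 0.396 in control A, 0.993 in restricted A and 0.815 in restricted B. At 8q24 the values were 0.697, 1.48 and 0.652 in the same libraries, and at 3p21 control A, control B and restricted A had 0.947, 1.08 and 1.08. Over the 6 windows on shared chromosomes the highest density was 19.9 and 5.59 times the lowest in the controls, and 2.92 and 2.24 times in the restricted libraries.

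**Figure D4:**
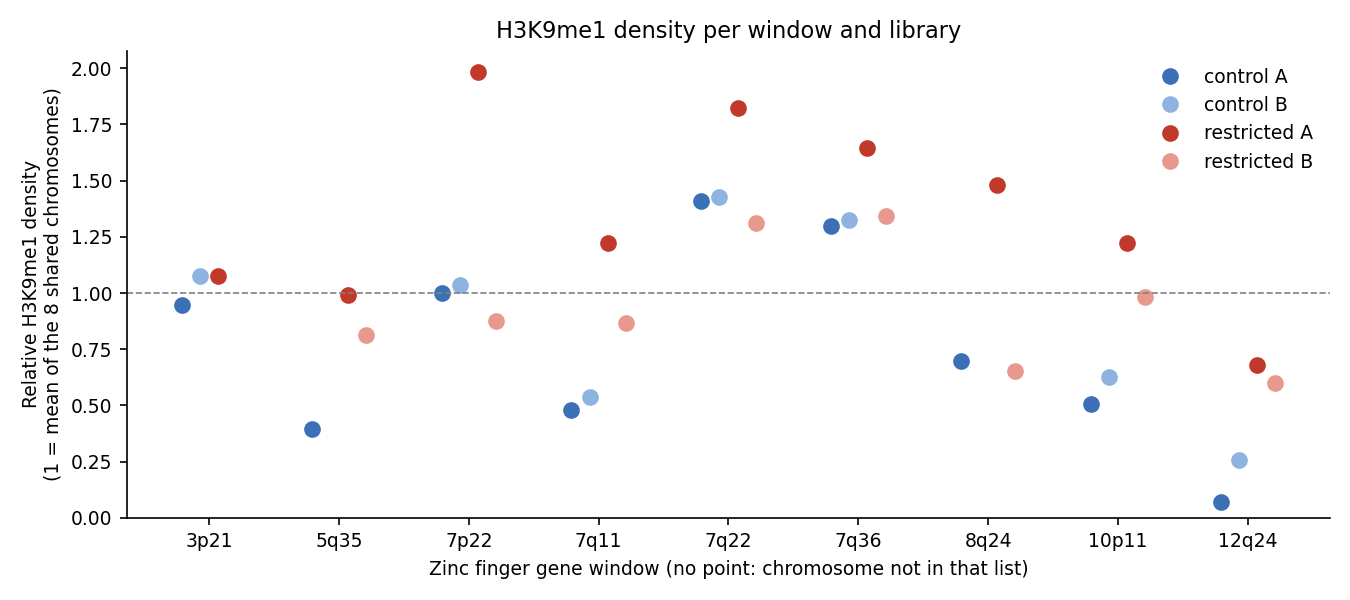
Relative H3K9me1 density (vertical axis, dashed line at 1 for the mean of the 8 chromosomes in all lists) per window, with 1 point per library and none where a list lacks the chromosome. At 7q11, 10p11 and 12q24 the controls lie at 0.628 or lower and the restricted libraries above them, while at 7p22 and 7q22 restricted B lies below the controls.

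Within the windows the same order was seen bin by bin at these loci, although no bin passed the test. Of 40 bins of 100 kb in the 6 windows, both restricted libraries were above both controls in 26 (65%), against 32.9% of the 12120 bins tested, and below in 2 (5%), against 20.2%. The 26 comprised 13 of 16 at 7q11, 6 of 6 at 10p11, 4 of 4 at 12q24, 2 of 9 at 7q36, 1 of 2 at 7p22 and 0 of 3 at 7q22. Without the division, in covered length, both restricted libraries were above both controls in 12 of the 40 bins, against 7.13% of all bins, and below in 3, against 24.7%. Of these 12, 8 lay at 7q11, 2 at 12q24 and 1 each at 10p11 and 7p22. In limma, fitted over all bins with Benjamini-Hochberg adjustment, 0 of the 40 bins were called higher and 0 lower (0% of all bins in either direction). At an unadjusted p under 0.05 there were 20 higher and 1 lower bins in the windows, against 13.5% higher and 7.29% lower of all bins. These counts moved with the setting, to 3 and 0 without scaling (0.322% and 2.71% of all bins), 9 and 1 with quantile normalization (4.14% and 5.67%), and 0 and 3 of 9 bins with regions of −log10 p of at least 2 (1.79% and 22.6%). The median log2 difference was 0.87 over the 40 bins and 0.10 over all bins, and without scaling 0.35 and -0.40. Without restricted B, 21 bins of the windows were called higher and 3 lower, against 10.1% and 13.4% of all bins. Without restricted A 3 were called higher and 1 lower, against 1.58% and 4.27%. In these fits the controls alone give the spread and the lone restricted library is assumed to vary like them, so the calls rest on which restricted library is used.

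The bins with the smallest adjusted p lay at 12q24 and 7q11. At chr12:133700001-133800000, next to the chromosome end, H3K9me1 covered 0.703 and 1.46 kb in the controls and 6.35 and 9.49 kb in the restricted libraries (log2 difference in density 2.43, SE 0.43, limma adjusted p = 0.137). At chr7:63400001-63500000 it covered 0.792 and 1.41 kb against 6.11 and 9.08 kb (2.36, SE 0.42, limma adjusted p = 0.137). Further named bins at 7q11 differed by 2.16 (starting at 63800001), 1.80 (63700001) and 1.97 (64400001) on the log2 scale. At 12q24 no region reached a −log10 p of 2 in any library. With such regions alone, none of these named bins was covered in at least 2 libraries, so none was tested at that cutoff. The H3K9me1-poor part of the 7q11 cluster ran from 63400001 to 64000000, where each of the 6 bins held at most 3.04 kb in either control. The lowest differences were at 7q36, in chr7:149500001-149600000, with 23 and 24.6 kb in the controls and 4.32 and 13.9 kb in the restricted libraries (-0.96, SE 0.27, limma adjusted p = 0.140), and in the bin beginning at 149400001 (-0.69). The others on that side were bins beginning at 99200001 at 7q22 (-0.61), 148900001 at 7q36 (-0.14) and 6600001 at 7p22 (-0.13).

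H3K9me1 lay within the H3K9me3 peaks of the windows in the restricted libraries to a larger share than in the controls. In control A 5.88% of the bases under H3K9me3 peaks in the windows were also under H3K9me1 regions of the same time and letter, and in control B 0%. In restricted A the share was 35.5% and in restricted B 26.6%. The mean was 2.94 ± 4.16% (SD, n = 2) in control and 31.1 ± 6.29% (SD, n = 2) in restricted libraries. Over the whole windows H3K9me1 covered 9.003%, 12.7%, 7.34% and 14.2% in the order control A, control B, restricted A, restricted B. The shares within H3K9me3 peaks thus lay below those of the whole windows in both controls and above them in both restricted libraries. The H3K9me3 bases behind them came to 13.5, 1.93, 27.2 and 6.70 kb on the listed chromosomes, so control B rests on little sequence. With H3K9me1 regions of −log10 p of at least 1.5 the shares in the windows were 0% in both controls, 6.01% in restricted A and 2.27% in restricted B.

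The same order held over the whole lists. Over all listed chromosomes the shares were 6.98% and 9.81% in the controls, against 11.2% and 14.96% of the whole sequence. In the restricted libraries they were 38.7% and 30.2%, against 5.35% and 14.03%. Both marks of a time and letter were called against 1 input, and the part of this in the shares was not tested. Lists were also crossed between times and letters on the 8 shared chromosomes, which was chosen after seeing the data. The H3K9me3 peaks of control A were covered by the H3K9me1 lists of control B, restricted A and restricted B at 7.58%, 18.2% and 21.8%. Those of restricted A were covered by the lists of control A, control B and restricted B at 7.08%, 7.16% and 25.8%. By its own list restricted A reached 36.5%. In the 6 windows on these chromosomes the order was less regular, over 2.69, 14.1 and 4.45 kb of H3K9me3 in control A, restricted A and restricted B. The control A peaks there were covered by the H3K9me1 lists of control A at 22.05%, control B at 2.20%, restricted A at 17.4% and restricted B at 26.4%. The restricted B peaks were covered at 40.2% by the list of their own time and letter and at only 4.05% by that of restricted A. The restricted A peaks were covered at 39.3% by their own list. Over control A peaks the control A list thus covered more than the restricted A list, and more than the 12.4% it covers of these chromosomes. Restricted A also had the most H3K9me1 reads (39452512) and the fewest input reads (23523460) of the 4, and the part of depth in these shares was not tested.

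**Figure D5:**
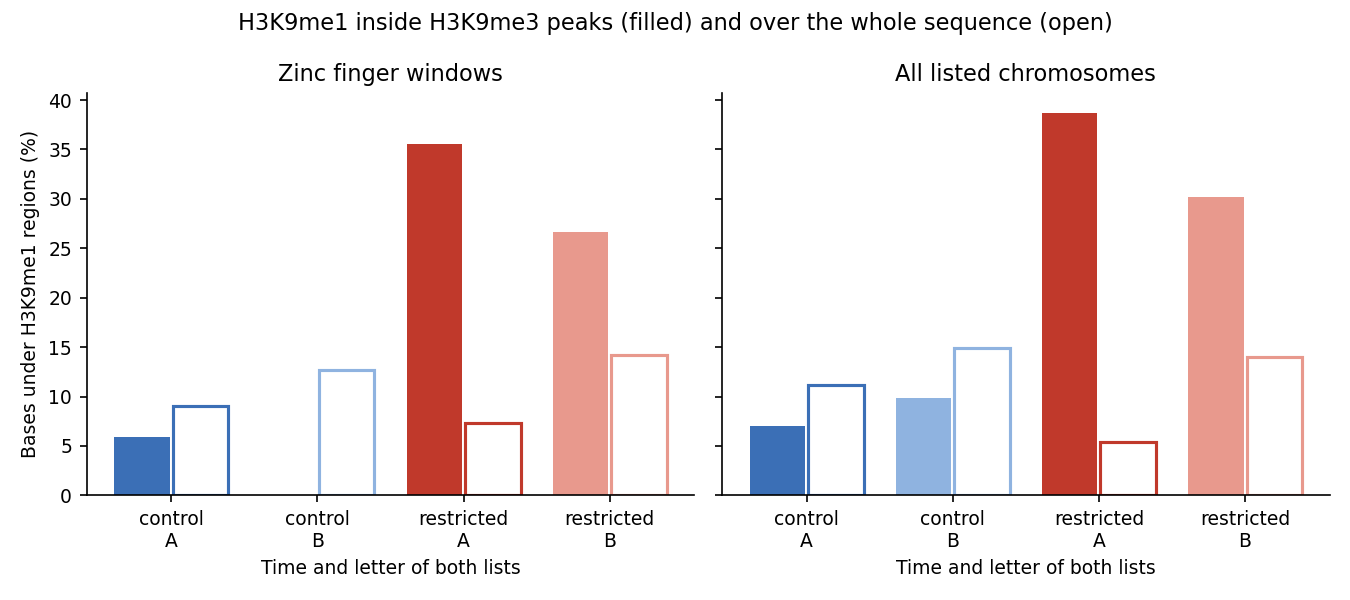
Share of bases under H3K9me1 regions (percent, vertical axis) within H3K9me3 peaks of the same time and letter (filled bars) and over the whole sequence (open bars), for the 9 windows (left) and all listed chromosomes (right). Filled bars are below open bars in both controls and above them in both restricted libraries, in both panels, and control B has none in the windows.

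Counted by region, H3K9me1 was listed in more of the H3K9me3 regions in the restricted libraries. Of the merged H3K9me3 regions of the windows on listed chromosomes, whichever library they were called in, 4 of 38 held any H3K9me1 in control A and 6 of 26 in control B, against 23 of 38 in restricted A and 17 of 35 in restricted B. Over all merged regions the shares were 17.5% and 28.6% in the controls, and 57.5% and 58.6% in the restricted libraries, the same order as in the windows. The restricted-only region at 7p22, chr7:6730347-6733759, held 0, 0.240, 1.11 and 0.590 kb of H3K9me1 in the order control A, control B, restricted A, restricted B. At chr7:99127618-99129501 (7q22) the controls held none and the restricted libraries 0.258 and 0.498 kb. At chr12:133779281-133782092 (12q24) only restricted B held any, 0.812 kb. The control-only region at 5q35, chr5:178306249-178307470, held none in control A, 0.854 kb in restricted A and 0.036 kb in restricted B, so H3K9me1 was listed there in the libraries that listed no H3K9me3. At 8q24 the longest region, chr8:146063895-146069846, held 1.31 kb in restricted A, while control A and restricted B listed none. The restricted libraries thus differed at this site in both marks.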

How the data were processed

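ChIP-seq peak lists of 8 HCT116 libraries were used, and the 4 inputs entered only through the authors' peak calls. Times and letters came from sample titles, since the H3K9me1 samples carry no treatment tag. Bowtie2 2.1.0, SAMtools 1.5, MACS2 2.1.1.20160309 and hg19 are named in the submitters' processing notes. Each library had its own broad calls, per the file headers, for H3K9me3 with a weak q cutoff of 0.1 and for H3K9me1 with a weak p cutoff of 0.1 and at most 1 read per position, so amounts are not comparable between marks. The deposited tables give pileup as a signal (read coverage). Their deposited p and q stand on the −log10 scale. Fold enrichment as deposited is the ratio of pileup to local background. Lane 3 held the A and lane 2 the B libraries of H3K9me3, and the reverse for H3K9me1, per the file headers.

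Covered lengths were computed in Python 3.11.15 (interval code checked on 300 random sets, 0 differing). H3K9me3 peaks within 1 kb were merged, and a region was present with 1 bp. For H3K9me1, 100 kb bins covered in 2 or more libraries entered limma 3.58.1 in R 4.3.3 (trend and robust, log2(relative density + 0.1), adjusted p under 0.05). Tested on simulated data for this comparison (12120 bins, 200 of them changed), the fit found 1.5% of changes of log2 1 and 92.5% of those of log2 2. It made 7 false calls at log2 2. The simulated noise was drawn from variances that limma had already smoothed, so these shares may be too high for the real bins. Real bins with differences of 2.43 and 2.36 were not called, so 0 calls do not exclude changes of that size. Named were all windows, and regions in at least 3 libraries or in both libraries of 1 condition alone. The 5 regions with the largest covered length summed over libraries were named too, and, by smallest adjusted p, 5 bins in each direction. A comparison of member proteins was planned and not run, and promoters (Biopython 1.88) were used instead. Members, windows and lists were chosen with earlier results of these data known.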

Additional observations from a re-analysis of the deposited data

How the results depend on the processing

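The ratio of H3K9me3 length in all windows, restricted over control (1.54), was between 1.25 and 2.096 with −log10 q of at least 2, fold of at least 3, wider windows, or without 7q11 and 10p11 or 8q24. It was 0.224 with −log10 q of at least 5, where few peaks are left, and 0.636 to 2.44 with 1 library left out. Restricted-only regions (2) and control-only regions (3) were the same number with other merging distances, 0 and 1 when at least 50% of a merged region had to be covered, and 1 and 0 with equal numbers of peaks. The windows were denser than their flanks in 1 library, and in 4 without the flank before 7q11. Bins with both restricted libraries above both controls went from 26 to 12 without scaling. The 0 called H3K9me1 bins became 7 higher, with 0 lower, with the letter as a replicate block (2.93% and 1.12% of all bins), and 0 to 21 higher and 0 to 3 lower with 1 library left out. Deviations of same-lettered libraries correlated at -0.10 over 12120 bins, so the letters are not taken as pairs. Other pseudocounts, scalings, filters and 250 kb bins left 0 calls. The median difference over all bins (0.10) was -0.40 without scaling and -0.44 with regions of −log10 p of at least 2. With regions of −log10 p of at least 2 the named higher bins at 12q24 and 7q11 were not tested, since too few libraries had such a region in them. Other named bins changed sign at that cutoff (0.68 at chr7:149500001-149600000, 0.68 at chr7:99200001-99300000 and 0.86 at chr7:6600001-6700000). The bin chr7:148900001-149000000 did so with quantile normalization (0.071), without control B (0.019) and without restricted A (0.056), with -0.33 as its lowest value with 1 library left out. The bin chr7:6600001-6700000 did so without restricted B (0.26), and its lowest such value was -0.52. The ratio of mean H3K9me1 density was 1.46 and ranged from 1.199 to 1.72 with 1 library left out. The difference in H3K9me1 within H3K9me3 peaks, 28.2 percentage points, was 23.7 to 32.6 with 1 library left out, 36.1 without 8q24 and 4.14 with H3K9me1 regions of −log10 p of at least 1.5; these were chosen after seeing the data.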
